A study of Mus musculus with 12 samples.

Results

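The set described here holds the adrenergic receptors and the genes of cyclic AMP (cAMP) signalling, 68 of the 18255 genes listed in at least 1 of 12 libraries. Members were taken by symbol alone, with no measured value: the adrenergic receptors (Adra and Adrb), the adenylyl cyclases (Adcy), every gene named as a phosphodiesterase (Pde), the subunits of protein kinase A (Prkac and Prkar), the A-kinase anchoring proteins (Akap), and Gnas, Creb1, Crem, Crtc1, Crtc2 and Crtc3. By role these are 7 receptors, 1 stimulatory G protein, 9 cyclases, 25 phosphodiesterase-named genes, 6 kinase subunits, 15 anchoring proteins and 5 genes of CREB and its coactivators. The libraries are mRNA profiles of 3T3-L1, an established mouse line of preadipocytes that can be turned into fat cells in culture. Control 3T3-L1 cells and 3T3-L1 cells overexpressing LIGHT, the cytokine encoded by Tnfsf14, were each profiled undifferentiated and after beige differentiation, with 3 libraries in each of the 4 groups. Both differentiated groups had received dexamethasone, indomethacin, insulin, 0.5 mM IBMX, 1 µM rosiglitazone and 1 nM tri-iodothyronine for 48 h, and then a maintenance medium that kept only the rosiglitazone, tri-iodothyronine and insulin. The day of harvest, the vector, and whether the LIGHT cells are 1 clone or a pool were not stated in the labels. Nothing in the labels ties the libraries of 1 group to different cultures, and the p-values therefore measure only the spread between these samples, which may be technical.

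A hormone such as noradrenaline binds a beta-adrenergic receptor, which acts through the G protein alpha subunit made by Gnas to switch on adenylyl cyclase; alpha-2 receptors act through inhibitory G proteins and lower cyclase activity, and alpha-1 receptors act through calcium. The cAMP so made frees the catalytic subunits of protein kinase A (PKA) from their regulatory subunits, anchoring proteins hold the enzyme at chosen places in the cell, and phosphodiesterases break cAMP down. PKA phosphorylates CREB and releases the CRTC coactivators into the nucleus, where they switch on genes together. In fat cells this pathway drives lipolysis and, in brown and beige fat, heat production, with the beta-3 receptor made by Adrb3 as its best known rodent entry point. IBMX, part of the cocktail, is a broad inhibitor of phosphodiesterases.

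Total expected counts per library ran from 16334079 to 19686675, and 14812 to 15017 genes were listed in each. Tnfsf14 was checked first. It had 38 to 58 expected counts in the undifferentiated LIGHT libraries and at most 1 in the undifferentiated controls. After differentiation it went against the label in 2 libraries: the library labelled control 1 had 113 expected counts against 0 in controls 2 and 3, and the library labelled LIGHT 1 had 0 against 148 and 122 in LIGHT 2 and 3. The groups are kept as labelled throughout. The counts of all members called, and many single results, are also given without these 2 libraries, on 10 libraries. A result with no value on 10 libraries beside it rests on the 12 libraries as labelled. The summed level of 5 adipocyte markers went from 30.1 to 33.8 CPM (counts scaled to each library's total with edgeR's TMM factors) before to 8590 to 13900 after differentiation in the controls, and from 9.61 to 26.9 to 8610 to 13800 in the LIGHT cells. The summed level of 4 preadipocyte or fibroblast markers was 4840 to 5790 CPM before and 5130 to 7650 CPM after differentiation in the controls. In LIGHT cells it was 8060 to 8830 CPM before and 5480 to 6720 CPM after. These ranges after differentiation include library 1 of each line. Fabp4, most of the adipocyte sum, had 6990, 11100 and 11800 CPM in differentiated controls 1, 2 and 3. In differentiated LIGHT cells it had 11600, 7100 and 7370 CPM. Col1a1, most of the fibroblast sum, had 6470, 4280 and 4500 CPM and 4580, 5580 and 5550 CPM. Without library 1 the lines did not overlap in either gene. Of the 4 beige or brown markers, 3 had at most 10 counts in every library, Ucp1 with at most 2 among them. The summed level of the 4 went from 1.62 to 2.39 CPM to 6.21 to 11.6 CPM in the controls and from 0.786 to 1.42 CPM to 7.79 to 12.0 CPM in LIGHT cells, nearly all of it Ppargc1a. The summed level of the 3 muscle markers listed went from 7.03 to 10.7 CPM to 16.9 to 29.5 CPM, most of it Des, while Myog had 1 count in 1 library and 0 in the other 11. The part of these markers in the results below was not tested. In bulk RNA, fewer cells of a type and less RNA per cell cannot be told apart.

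Of the 68 members, 46 passed edgeR's low-count filter and were tested, and 45 were listed in all 12 libraries. The 22 members that were not tested never exceeded 1 CPM. Adrb3 and Adcy5 owed their place among the tested genes to the differentiated libraries alone, and Akap3 and Pde8b to the undifferentiated ones, so these 4 had to differ between the stages and count as no support for a change of the set. Levels within a gene are CPM, with values in library order 1, 2, 3. Levels between genes use the deposited FPKM, which are per length. Differences are log2 fold changes ± SE from edgeR's quasi-likelihood test over all genes, with Benjamini-Hochberg adjusted p, and a member is called at an adjusted p under 0.05.

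With differentiation the share of members called was near that of all genes in both lines. In control cells 31 of 46 members were called, 15 higher and 16 lower, against a background of 63.9% of the 12993 genes tested. Without control 3 after differentiation 10 members were called lower in place of 16. In LIGHT cells 29 were called, 16 higher and 13 lower, against 58.6% of genes. The median member changed by 0.05 in the controls and 0.04 in the LIGHT cells on the log2 scale, beside 0.0 and -0.004 for all genes. Of the members called, 24 were called in the same direction in both lines (77.4% of the control calls and 82.8% of the LIGHT calls), and Akap2 was called in opposite directions. On 10 libraries the calls were 35 of 47 members in the controls (background 70.7%) and 32 of 47 in the LIGHT cells (background 64.1%). Every member called higher or lower on 12 libraries in LIGHT cells was called the same way on 10, as were 29 of the 31 in the controls.

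Before differentiation the lines differed at 16 of 46 members, 8 higher and 8 lower in LIGHT cells, against a background of 26.5% of genes. On 10 libraries the count was 22 of 47 with a background of 44.4%. After differentiation no member was called on 12 libraries, where no gene was either (0.0%). The lowest adjusted p among members was 0.913 by edgeR, and 2 of 46 members had an unadjusted p under 0.05 by edgeR and 1 each by DESeq2 and limma-voom. Of the 12993 genes tested, 523 had an unadjusted p under 0.05 by edgeR, 454 by DESeq2 and 536 by limma-voom. On 10 libraries 9 of 47 members were called after differentiation, 4 higher and 5 lower in LIGHT cells, beside 31.0% of genes. That count was 5 without control 3 and 4 without LIGHT 2 after differentiation. The difference between the lines in their response to differentiation was called for 6 of 46 members (4 higher and 2 lower in LIGHT cells, background 9.34%, or 5.08% higher and 4.26% lower) and, on 10 libraries, for 16 of 47 (6 higher and 10 lower, background 31.0%). On 12 libraries less 1, it was 10 without control 1 or without control 2 after differentiation.

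**Figure D1:**
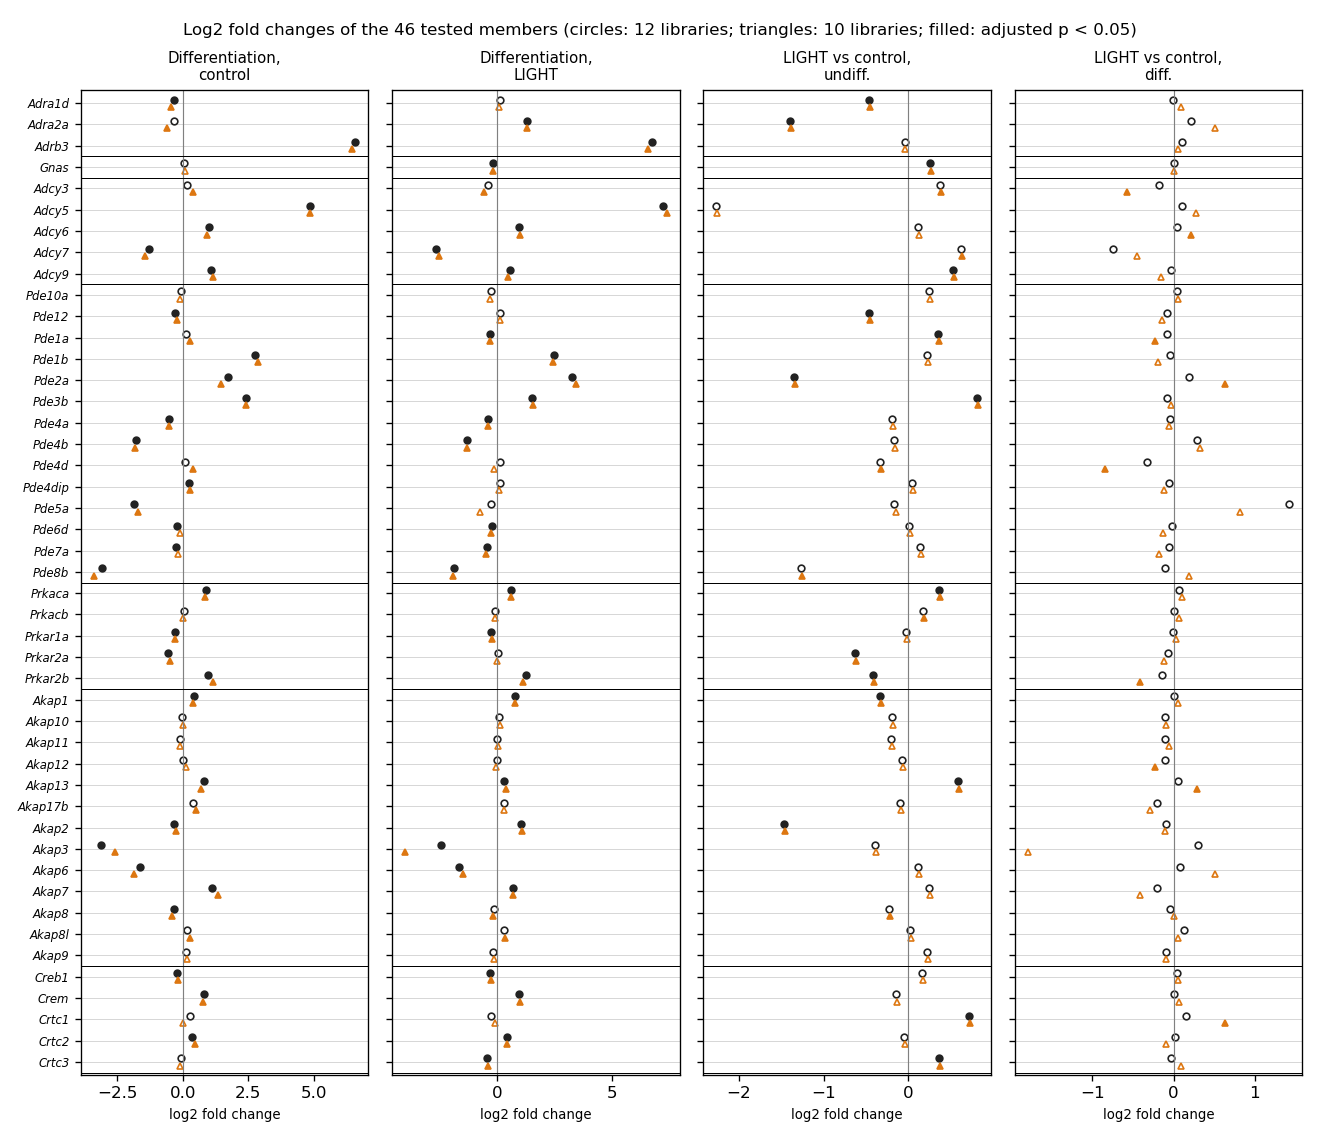
Log2 fold changes (x axis) of the 46 members tested (y axis, grouped by role from receptors at the top to CREB and its coactivators at the bottom) in 4 comparisons; circles use 12 libraries, triangles use the 10 left without the libraries labelled control 1 and LIGHT 1 after differentiation, and filled symbols have an adjusted p under 0.05. In the rightmost panel no circle is filled and 9 triangles are; fitted values of Adrb3, Adcy5, Akap3 and Pde8b rest on counts near 0 in 1 stage.

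Among the receptors, the beta-3 receptor appeared with differentiation in both lines, and the alpha receptors carried most of the receptor message throughout. Adrb3 had 1, 0 and 0 expected counts in the undifferentiated controls and 1, 0 and 0 in the undifferentiated LIGHT libraries. After differentiation it had 49, 39 and 41 in the controls and 55, 49 and 36 in the LIGHT cells. Summed over the group and scaled for depth, the ratio was 132-fold in the controls (95% exact interval 23.3 to 5250) and 149-fold in the LIGHT cells (26.3 to 5920), the intervals covering counting error only. The differentiated values of the lines overlapped completely, at 2.21 to 3.05 CPM and 2.19 to 3.43 CPM. Their difference was 0.11 ± 0.36 on the log2 scale (edgeR adjusted p = 0.964), and 0.06 ± 0.43 on 10 libraries.

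Adrb1, the beta-1 receptor, had 5, 2 and 11 counts in undifferentiated controls, 11, 2 and 6 in undifferentiated LIGHT cells, 3, 8 and 5 in differentiated controls and 6, 5 and 3 in differentiated LIGHT cells. The 4 groups of Adrb1 overlapped. On 10 libraries, where it passed the filter, its changes with differentiation were 0.13 ± 0.80 in the controls and -0.62 ± 0.88 in LIGHT cells (edgeR adjusted p = 0.89 and 0.553).

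Adra1d, an alpha-1 receptor, had the highest FPKM of the adrenergic receptors in every group. Its mean was 22.9 FPKM in undifferentiated controls and 16.4 to 16.9 FPKM in the other groups, or 84.2% to 94.6% of the summed receptor FPKM. In CPM it was 50.7, 45.9 and 51.2 in undifferentiated controls and 33.7, 32.5 and 41.2 in undifferentiated LIGHT cells, which did not overlap. After differentiation it was 45.2, 34.2 and 36.8 in the controls and 40.1, 37.6 and 38.2 in the LIGHT cells. Adra1d fell by 0.35 ± 0.11 in the controls (edgeR adjusted p = 0.0149), changed by 0.11 ± 0.11 in LIGHT cells (adjusted p = 0.413), and was lower by -0.46 ± 0.11 in LIGHT cells before differentiation (adjusted p = 0.00935).

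Adra2a, the alpha-2A receptor that couples to inhibitory G proteins, was the receptor with the largest line difference before differentiation. It measured 7.56, 5.96 and 7.4 CPM in the undifferentiated controls and 2.24, 2.46 and 3.22 CPM in the undifferentiated LIGHT cells. After differentiation the controls had 7.71, 4.54 and 4.48 CPM and the LIGHT cells 6.54, 7.44 and 5.36 CPM. All undifferentiated LIGHT values lay below every other library. The difference before differentiation was -1.40 ± 0.25 (edgeR adjusted p = 0.00158). Adra2a rose by 1.28 ± 0.25 in LIGHT cells (adjusted p = 0.00064) and changed by -0.32 ± 0.23 in the controls (adjusted p = 0.243), and these responses differed by 1.61 ± 0.34 (adjusted p = 0.0116). Without the 2 libraries against their labels Adra2a fell in the controls by 0.60 ± 0.20 (adjusted p = 0.012), a call that ended without the library labelled control 3 after differentiation (adjusted p = 0.052), and the responses differed by 1.89 ± 0.29. Adra1a and Adra1b had at most 3 counts in any library.

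The promoter of Adra2a is shown because Adra2a had the largest line difference among the receptors tested before differentiation. It is the 250 bases before the transcription start in the RefSeq promoter table (GRCm38.p6, chr19:54045009-54045258, plus strand), with a short cAMP response element in capitals. The short element searched for was TGACG, or CGTCA when read on the other strand, and the full element was TGACGTCA, which contains the short element on both strands.
Adra2a: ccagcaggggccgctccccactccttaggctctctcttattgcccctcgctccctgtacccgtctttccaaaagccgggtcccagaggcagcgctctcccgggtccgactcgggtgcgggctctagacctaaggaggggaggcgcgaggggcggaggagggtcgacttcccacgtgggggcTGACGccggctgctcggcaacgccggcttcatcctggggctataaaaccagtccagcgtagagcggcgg
Promoters were found for 51 of the 68 members, with 97 windows of this length. The short element was in 19 of these windows, 19.6%, beside 17.8% of all 32851 windows in the table, and the full element in 1 of them, 1.03%, beside 1.55%. A match describes the letters only.

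**Figure D2:**
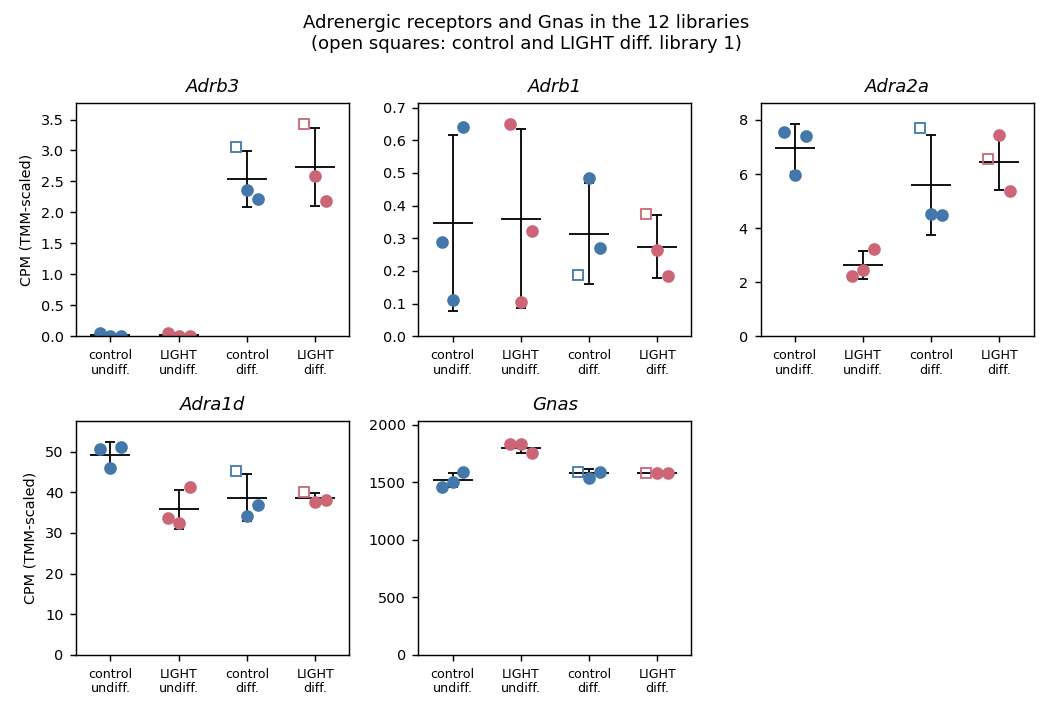
CPM (y axis, from 0) of 4 adrenergic receptors and Gnas in the 4 groups (x axis); each point is a library, bars are the mean and SD of 3 libraries, and open squares are the libraries labelled control 1 and LIGHT 1 after differentiation. Adrb3 lies at 0 to 0.0591 CPM before and 2.19 to 3.43 CPM after differentiation, and the undifferentiated LIGHT values of Adra2a lie below all others.

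Gnas, the alpha subunit that links beta receptors to adenylyl cyclase, was the most abundant member, at 976 to 1180 FPKM on average. It measured 1460, 1500 and 1590 CPM in undifferentiated controls, 1830, 1830 and 1750 CPM in undifferentiated LIGHT cells, 1590, 1540 and 1590 CPM in differentiated controls and 1580, 1580 and 1580 CPM in differentiated LIGHT cells. The undifferentiated LIGHT libraries were above all others. That difference was 0.25 ± 0.06 (edgeR adjusted p = 0.013), and Gnas fell by 0.19 ± 0.06 in LIGHT cells (adjusted p = 0.0221) but changed by 0.06 ± 0.06 in the controls (adjusted p = 0.469). Leaving out 1 of 4 libraries ended each of these calls (LIGHT 1 or 2 before differentiation for both, control 1 or 2 before differentiation for the first, LIGHT 2 or 3 after differentiation for the second), with adjusted p of 0.0505 to 0.0736 and changes of 0.22 to 0.24 and -0.19 to -0.18. The fall was also not called without the low-count filter (adjusted p = 0.0516) or with only the 2 LIGHT groups in the fit (adjusted p = 0.0671). On 10 libraries they were 0.26 ± 0.05 and -0.18 ± 0.05, with adjusted p of 0.000203 and 0.00571. The Gnas locus makes several transcripts that gene counts cannot tell apart.

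Adcy6 rose with differentiation in both lines and made up most of the adenylyl cyclase message. The summed FPKM of the 9 cyclases was 21.7 ± 1.30 (SD, n = 3) before and 38.3 ± 4.91 after differentiation in the controls, and 24.3 ± 1.71 and 39.7 ± 3.09 in LIGHT cells. Adcy6, a calcium-inhibited cyclase, held 78.6% to 87.9% of that sum on group average. Adcy6 measured 109, 97.0 and 105 CPM in undifferentiated controls, 111, 106 and 118 CPM in undifferentiated LIGHT cells, 241, 190 and 194 CPM in differentiated controls and 198, 225 and 222 CPM in differentiated LIGHT cells. No undifferentiated library reached the lowest differentiated one. The rise was 1.01 ± 0.09 in the controls (edgeR adjusted p = 1.14e-06) and 0.94 ± 0.09 in LIGHT cells (adjusted p = 2.74e-06). On 10 libraries Adcy6 was higher in LIGHT cells after differentiation by 0.21 ± 0.06 (adjusted p = 0.0142), where the controls 2 and 3 had 190 and 194 CPM and LIGHT 2 and 3 had 225 and 222 CPM.

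The other cyclases moved apart. Adcy5, also calcium-inhibited, had 1, 2 and 3 counts in undifferentiated and 59, 65 and 56 in differentiated controls, and 0, 1 and 0 in undifferentiated and 47, 72 and 76 in differentiated LIGHT cells. Adcy5 passed the filter through the differentiated libraries alone, so it had to differ between the stages. The fitted change was 4.86 ± 0.44 in the controls. In LIGHT cells, from 1 count to 195, the depth-scaled ratio was 207 (95% interval 36.8 to 8230). The difference in responses of Adcy5 was not called (2.36 ± 0.96, edgeR adjusted p = 0.159). Adcy9 rose from 5.83, 6.35 and 6.06 to 12.4, 13.3 and 13.3 CPM in the controls, by 1.1 ± 0.13 (edgeR adjusted p = 8.67e-06). In LIGHT cells Adcy9 went from 7.68, 8.48 and 10.0 to 14.1, 12.0 and 11.9 CPM, a rise of 0.54 ± 0.12 (adjusted p = 0.00254), and it was already higher there before differentiation by 0.52 ± 0.13 (adjusted p = 0.0109). On 10 libraries these 2 responses differed by -0.69 ± 0.19 (adjusted p = 0.00975), and on 12 by -0.56 ± 0.18 (adjusted p = 0.07).

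Adcy7, a cyclase best known from blood cells, fell in both lines. It had 4.96, 3.93 and 4.02 CPM in undifferentiated controls and 2.18, 1.33 and 1.73 CPM after differentiation, a fall of 1.30 ± 0.25 (edgeR adjusted p = 0.000538). In LIGHT cells it fell from 6.32, 6.18 and 7.3 to 0.873, 1.43 and 0.792 CPM, by 2.66 ± 0.26 (adjusted p = 2.34e-06). The stages did not overlap in either line. The fall was called as larger in LIGHT cells, by -1.36 ± 0.36 (adjusted p = 0.0352), but leaving out any 1 of 9 libraries (all but control 1 before differentiation, control 2 after and LIGHT 2 after) ended that call with adjusted p of 0.0501 to 0.0837 and differences of -1.41 to -1.19. On 10 libraries it was -1.08 ± 0.39 (adjusted p = 0.0393), and there leaving out any 1 of 6 libraries ended it: control 2 or 3 and LIGHT 1 or 3 before differentiation, and control 3 or LIGHT 3 after. The adjusted p was then 0.0553 to 0.191 and the difference -1.11 to -0.74. DESeq2 did not call it on 10 libraries (adjusted p = 0.0536).

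Adcy3, the cyclase of olfactory signalling that fat cells also express, was called on 10 libraries but not on 12 with TMM scaling and all groups in the fit. Its level was 10.0, 8.43 and 10.6 CPM in undifferentiated controls, 12.0, 11.5 and 14.1 CPM in undifferentiated LIGHT cells, 7.65, 12.5 and 12.5 CPM in differentiated controls and 12.0, 8.13 and 8.71 CPM in differentiated LIGHT cells. After differentiation library 1 of each line was thus close to libraries 2 and 3 of the other line. On 12 libraries the change in LIGHT cells was called with scaling by library totals (-0.47, edgeR adjusted p = 0.0468), and the line difference before differentiation with only those 2 groups in the fit (0.39, adjusted p = 0.0173). On 10 Adcy3 rose by 0.39 ± 0.14 in the controls (edgeR adjusted p = 0.0146) and fell by 0.57 ± 0.14 in LIGHT cells (adjusted p = 0.00132), responses that differed by -0.96 ± 0.19 (adjusted p = 0.000803). The rise in the controls ended without control 2 before differentiation, control 2 after or control 3 after (0.30 to 0.39, adjusted p = 0.0567 to 0.0696), and with scaling by library totals (adjusted p = 0.128). The line difference after differentiation, -0.58 ± 0.15 (adjusted p = 0.00647), ended without LIGHT 2 (-0.53, adjusted p = 0.0644). The remaining cyclases, Adcy1, Adcy4, Adcy8 and Adcy10, were not tested and stayed at or below 0.623 CPM.

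**Figure D3:**
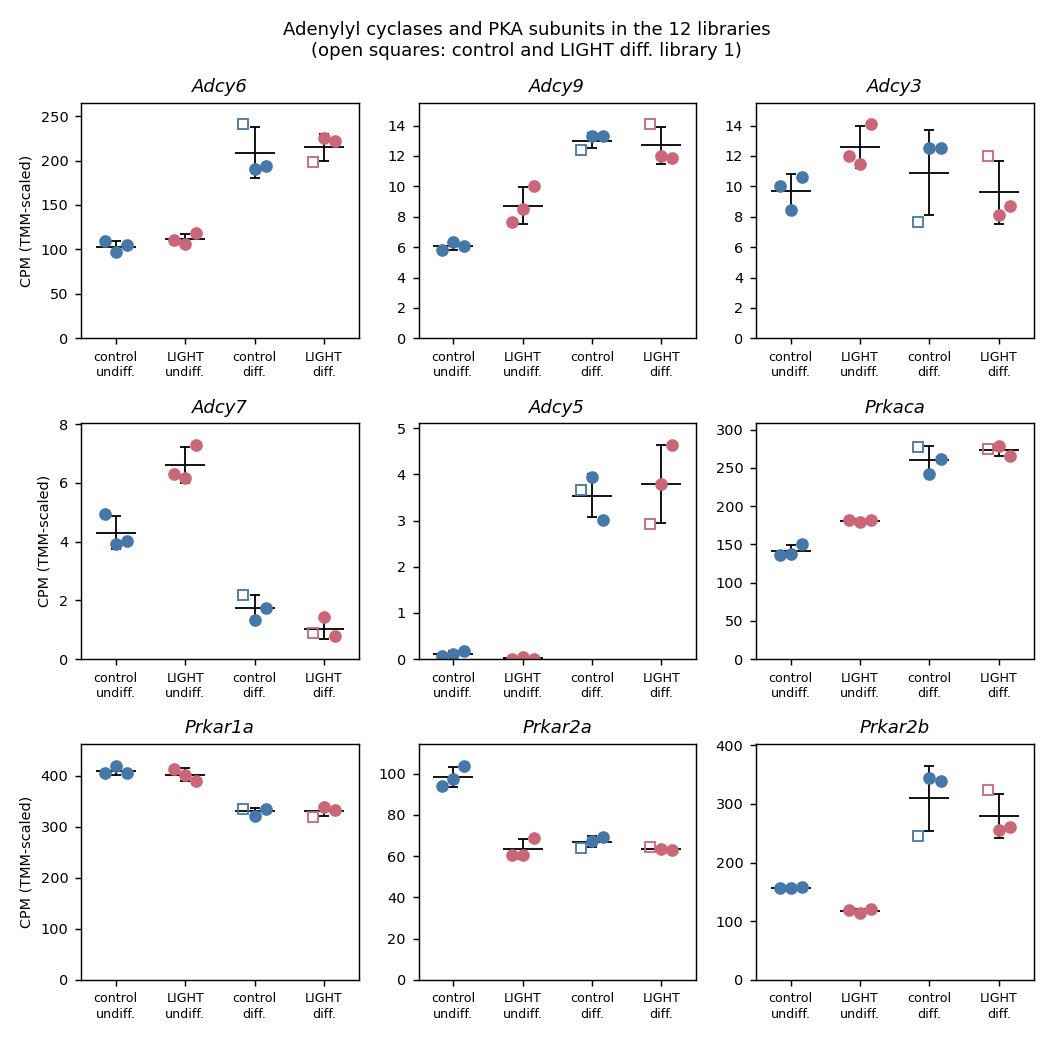
CPM (y axis, from 0) of 5 adenylyl cyclases and 4 PKA subunits in the 4 groups (x axis); points are libraries, bars the mean and SD of 3, and open squares the libraries labelled control 1 and LIGHT 1 after differentiation. Adcy6, Adcy9, Prkaca and Prkar2b are higher after differentiation, Adcy7 and Prkar1a lower, and in Adcy3 and Prkar2b each open square sits near the filled points of the other line.

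Among the phosphodiesterases Pde3b, Pde1b and Pde2a rose with differentiation in both lines, and the PDE4 forms Pde4a and Pde4b fell. Of the 14 tested, 11 were called in the controls, 4 higher and 7 lower, and 9 in LIGHT cells, 3 higher and 6 lower, beside 63.9% and 58.6% of all genes. On 10 libraries the control calls were 6 higher and 5 lower (70.7% of all genes), and those in LIGHT cells again 3 and 6 (64.1%). Taking the 20 listed catalytic phosphodiesterases of cyclic nucleotides together, their summed FPKM went from 36.3 ± 2.14 to 56.8 ± 0.20 (SD, n = 3) in the controls and from 41.1 ± 2.64 to 55.0 ± 1.46 in LIGHT cells. Pde1a held the largest share before differentiation, 30.8% and 35.4% of that sum in the 2 lines, and Pde3b the largest after it, 38.3% and 38.1%. The other 5 genes with a Pde symbol are not cyclic nucleotide hydrolases themselves: Pde12 is a mitochondrial enzyme of RNA, Pde4dip is a centrosomal scaffold, Pde6d is a carrier of lipidated proteins, and Pde6g and Pde6h are inhibitory subunits of the photoreceptor enzyme.

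Pde3b, through which insulin restrains lipolysis in fat cells, rose from 22.9, 20.8 and 22 to 121, 116 and 114 CPM in the controls. In LIGHT cells it rose from 37.7, 37.5 and 39.6 to 104, 107 and 119 CPM. The lines did not overlap before differentiation and did after it. The rises were 2.42 ± 0.07 (edgeR adjusted p = 4.92e-11) and 1.53 ± 0.07 (adjusted p = 1.92e-09), with LIGHT cells higher before differentiation by 0.80 ± 0.07 (adjusted p = 1.5e-05). The responses differed by -0.89 ± 0.10 (adjusted p = 0.000307), and by -0.84 ± 0.10 on 10 libraries. After differentiation the line difference was -0.08 ± 0.07 (adjusted p = 0.913).

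Pde1b, a calmodulin-dependent form, rose from 3.64, 5.51 and 4.26 to 26.8, 31.3 and 32.6 CPM in the controls and from 4.78, 5.13 and 5.64 to 31.7, 27.2 and 28.9 CPM in LIGHT cells. Those rises were 2.76 ± 0.14 (edgeR adjusted p = 6.8e-09) and 2.49 ± 0.14 (adjusted p = 1.85e-08), and the lines overlapped at both stages. Its relative Pde1a moved less: 34.7, 34.6 and 31.7 CPM in undifferentiated controls, 42.3, 43.7 and 42.7 CPM in undifferentiated LIGHT cells, 31.2, 39.7 and 39.5 CPM in differentiated controls and 36.5, 34.4 and 33.5 CPM in differentiated LIGHT cells. Pde1a was higher in LIGHT cells before differentiation by 0.35 ± 0.09 (adjusted p = 0.0128) and fell there by 0.30 ± 0.09 (adjusted p = 0.011). On 10 libraries Pde1a rose in the controls by 0.26 ± 0.07 and fell in LIGHT cells by 0.33 ± 0.07, a difference of -0.59 ± 0.10 (adjusted p = 0.000151).

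Pde2a, which cyclic GMP stimulates, differed between the lines as Adra2a did. It had 3.98, 3.32 and 3.21 CPM in undifferentiated controls and 1.3, 1.41 and 1.4 CPM in undifferentiated LIGHT cells. After differentiation it had 15.7, 9.99 and 8.8 CPM in the controls and 10.0, 13.8 and 15.5 CPM in LIGHT cells. Pde2a was lower in undifferentiated LIGHT cells by -1.35 ± 0.27 (edgeR adjusted p = 0.00348), rose by 1.71 ± 0.23 in the controls (adjusted p = 3.32e-05) and 3.25 ± 0.26 in LIGHT cells (adjusted p = 3.37e-07), and these rises differed by 1.54 ± 0.34 (adjusted p = 0.0161), a difference not called by limma-voom (adjusted p = 0.0657). On 10 libraries the rises differed by 1.97 ± 0.25 and Pde2a was higher in differentiated LIGHT cells by 0.63 ± 0.16 (adjusted p = 0.00496). That last call ended without control 3 or LIGHT 3 after differentiation (0.53 to 0.55, adjusted p = 0.0562 to 0.0616).

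The PDE4 forms are specific for cAMP. Pde4b fell from 13.7, 13.9 and 13.1 to 4.17, 4.06 and 3.46 CPM in the controls, by 1.80 ± 0.14 (edgeR adjusted p = 1.51e-07), and from 10.5, 12.2 and 13.3 to 4.74, 4.44 and 5.06 CPM in LIGHT cells, by 1.34 ± 0.13 (adjusted p = 2.55e-06). Pde4a fell by 0.54 ± 0.11 and 0.40 ± 0.11 in the 2 lines (adjusted p = 0.000812 and 0.00758). No differentiated library of Pde4a or Pde4b reached an undifferentiated one. Pde4d was not called with differentiation on 12 libraries (0.10 ± 0.24 and 0.11 ± 0.24, adjusted p = 0.726 and 0.705). It had 17.5, 18 and 18.8 CPM in undifferentiated controls, 14.2, 14.3 and 14.7 CPM in undifferentiated LIGHT cells, 11.8, 24.0 and 22.4 CPM in differentiated controls and 20.8, 14.0 and 11.9 CPM in differentiated LIGHT cells. Here too library 1 of each line after differentiation lay closer to libraries 2 and 3 of the other line than to its own. On 10 libraries Pde4d was lower in LIGHT cells both before (-0.32 ± 0.10, adjusted p = 0.0101) and after differentiation (-0.84 ± 0.12, adjusted p = 1.91e-05).

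Pde7a, another form specific for cAMP, fell by 0.26 ± 0.10 in the controls (edgeR adjusted p = 0.044, and 0.132 on 10 libraries) and 0.44 ± 0.10 in LIGHT cells (adjusted p = 0.00258). Pde8b, which belongs to a family known to be insensitive to IBMX, went from 33 to 42 counts in undifferentiated controls and 6 to 28 in undifferentiated LIGHT cells to 1 to 6 in every differentiated library. Pde10a and Pde12 stayed within 7.86 to 11.6 CPM and 26.3 to 39.6 CPM, and Pde12 was lower in undifferentiated LIGHT cells by -0.46 ± 0.08 (adjusted p = 0.00178). Pde5a, specific for cyclic GMP, had 6 to 16 counts in undifferentiated and 2 to 4 in differentiated controls (-1.87 ± 0.61, adjusted p = 0.0176), and 7 to 14 and 5 to 11 in LIGHT cells. Of the genes that do not hydrolyse cyclic nucleotides, Pde4dip was higher in the controls by 0.23 ± 0.07 (adjusted p = 0.0161) and Pde6d lower by -0.22 ± 0.08 (adjusted p = 0.0338, and 0.151 on 10 libraries). The 11 untested phosphodiesterase genes, Pde3a among them, stayed below 1 CPM.

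**Figure D4:**
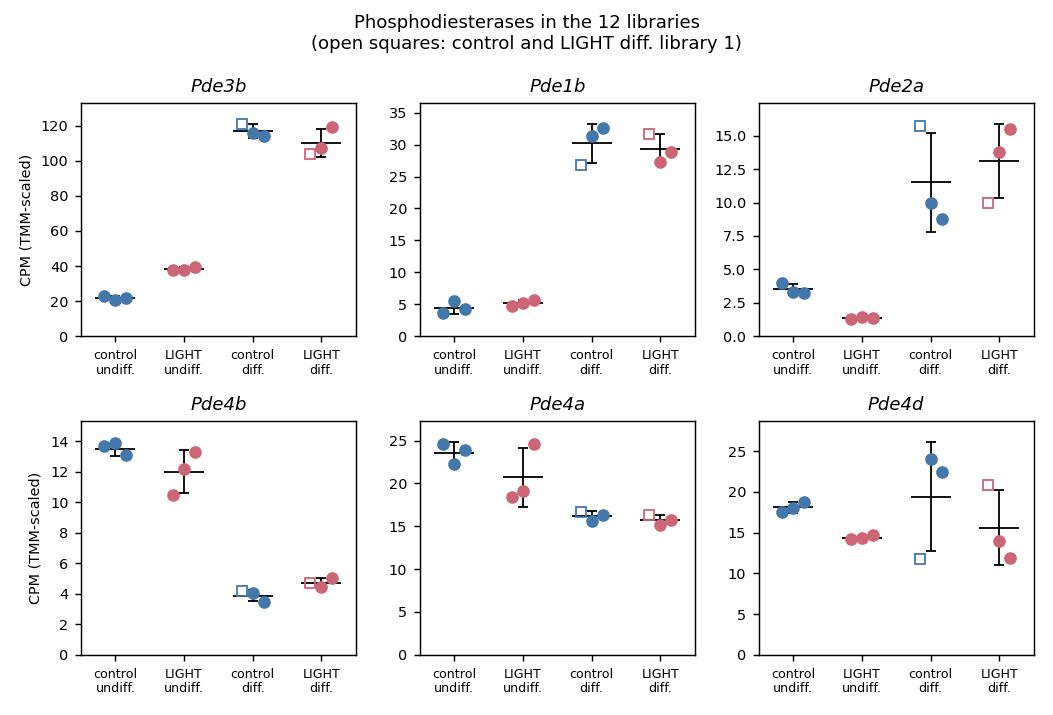
CPM (y axis, from 0) of 6 phosphodiesterases in the 4 groups (x axis); points are libraries, bars the mean and SD of 3, and open squares the libraries labelled control 1 and LIGHT 1 after differentiation. Pde3b, Pde1b and Pde2a are higher and Pde4a and Pde4b lower after differentiation, while the open squares of Pde4d lie at 11.8 and 20.8 CPM, away from their own groups.

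The PKA subunit transcripts Prkaca and Prkar2b rose and Prkar1a fell with differentiation in both lines. The catalytic subunits together went from 84.5 ± 2.37 to 132 ± 11 FPKM (SD, n = 3) in the controls and from 104 ± 3.21 to 140 ± 4.51 FPKM in LIGHT cells, mostly through Prkaca. Prkaca measured 136, 137 and 151 CPM in undifferentiated controls, 182, 179 and 182 CPM in undifferentiated LIGHT cells, 277, 242 and 261 CPM in differentiated controls and 275, 279 and 266 CPM in differentiated LIGHT cells. It rose by 0.88 ± 0.06 in the controls (edgeR adjusted p = 1.37e-07) and 0.59 ± 0.06 in LIGHT cells (adjusted p = 6.07e-06). LIGHT cells were higher before differentiation by 0.36 ± 0.06 (adjusted p = 0.00193), and after it the lines overlapped. Prkacb, the other catalytic subunit, had 66.1, 66.6 and 60.7 CPM in undifferentiated controls, 71.0, 67.7 and 79.6 CPM in undifferentiated LIGHT cells, 71.0, 67.7 and 60.2 CPM in differentiated controls and 65.5, 64.0 and 70.7 CPM in differentiated LIGHT cells. Prkacb was not called on 12 libraries with all groups in the fit. Its line difference before differentiation was called with only those 2 groups fitted (0.19, edgeR adjusted p = 0.0323) and on 10 libraries (0.185, adjusted p = 0.0399). The call on 10 libraries ended with DESeq2 (adjusted p = 0.0631) and, by edgeR, with scaling by library totals (adjusted p = 0.0833). It also ended without LIGHT 1, LIGHT 3 or control 3 before differentiation (0.115 to 0.202, edgeR adjusted p = 0.0552 to 0.209).

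The regulatory subunit transcripts Prkar1a and Prkar2b went opposite ways. Prkar1a, the type I alpha subunit, fell from 405, 420 and 406 to 335, 322 and 334 CPM in the controls, by 0.31 ± 0.06 (edgeR adjusted p = 0.000305), and from 414, 402 and 389 to 319, 338 and 332 CPM in LIGHT cells, by 0.28 ± 0.06 (adjusted p = 0.000746). Prkar2b, the type II beta subunit and the main regulatory subunit of fat tissue, rose from 157, 156 and 158 to 246, 345 and 339 CPM in the controls and from 119, 114 and 120 to 324, 256 and 260 CPM in LIGHT cells. The rises were 0.98 ± 0.12 (adjusted p = 1.41e-05) and 1.25 ± 0.12 (adjusted p = 2.2e-06). In FPKM, Prkar2b made up 26.6% ± 0.252 of regulatory subunit message before and 48.6% ± 5.32 after differentiation in the controls, and 23.4% ± 1.13 and 46.5% ± 4.02 in LIGHT cells (SD, n = 3). Prkar1a went from 61.1% to 43.9% and from 67.6% to 46.1%.

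Both type II subunits were lower in LIGHT cells before differentiation. Prkar2a had 94.0, 97.7 and 104 CPM in undifferentiated controls and 60.5, 60.5 and 69.0 CPM in undifferentiated LIGHT cells, a difference of -0.64 ± 0.07 (edgeR adjusted p = 5.79e-05). It then fell in the controls to 64.2, 67.4 and 69.4 CPM, by 0.55 ± 0.07 (adjusted p = 1.31e-05), and measured 64.5, 63.3 and 63.2 CPM in differentiated LIGHT cells, a change of 0.01 ± 0.07 (adjusted p = 0.937). These responses differed by 0.56 ± 0.10 (adjusted p = 0.00406). For Prkar2b the difference before differentiation was -0.42 ± 0.12 (adjusted p = 0.0232). Leaving out any 1 of the 6 undifferentiated libraries ended that call (-0.43 to -0.40, adjusted p = 0.0569 to 0.081). On 10 libraries, the difference was -0.41 ± 0.04 before (adjusted p = 5.45e-07) and -0.41 ± 0.05 after differentiation (adjusted p = 6.54e-06). Prkar1b stayed at or below 0.322 CPM.

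Promoters of these subunits are shown because Prkar1a and Prkar2b changed in opposite directions while Prkaca rose. Capitals mark the short or full cAMP response element described above, on either strand. For Prkar1a the 30 bases are those around the full element before 1 of its 6 listed starts (GRCm38.p6, chr11:109650889-109650918, plus strand), the element beginning 49 bases before that start. For Prkar2b (chr12:32061278-32061527, minus strand) and Prkaca (chr8:83972728-83972977, plus strand) they are the 250 bases before 1 of the 2 listed starts of each gene.
Prkar1a: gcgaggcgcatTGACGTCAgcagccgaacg
Prkar2b: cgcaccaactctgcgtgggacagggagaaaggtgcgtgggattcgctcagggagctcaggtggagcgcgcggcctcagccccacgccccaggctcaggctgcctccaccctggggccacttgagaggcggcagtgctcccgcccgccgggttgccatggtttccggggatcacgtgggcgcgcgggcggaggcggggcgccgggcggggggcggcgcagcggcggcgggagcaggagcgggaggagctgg
Prkaca: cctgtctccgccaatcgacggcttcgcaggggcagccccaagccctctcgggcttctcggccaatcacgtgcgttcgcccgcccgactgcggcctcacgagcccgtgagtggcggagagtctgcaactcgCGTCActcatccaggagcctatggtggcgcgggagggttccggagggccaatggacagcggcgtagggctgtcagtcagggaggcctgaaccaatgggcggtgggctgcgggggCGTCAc
The Prkar1a stretch holds the full element, the Prkaca window 2 short elements, and these letters are not in the Prkar2b window. The Prkar1a stretch was picked because it holds the full element, found at 1 of its 6 starts. Over all listed starts the short element was in 3 of 6 windows of Prkar1a, 1 of 2 of Prkaca and 0 of 2 of Prkar2b.

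Among the anchoring proteins Akap1 and Akap7 rose and Akap6 fell in both lines. Of the 13 tested, 7 were called with differentiation in the controls, 3 higher and 4 lower, and 6 in LIGHT cells, 4 higher and 2 lower, beside 63.9% and 58.6% of all genes. On 10 libraries 9 were called in the controls, 5 higher and 4 lower, beside 70.7% of all genes. In LIGHT cells 8 were then called, 5 higher and 3 lower, beside 64.1%. Akap1, which holds PKA at the mitochondrial surface, rose from 60.3, 60.3 and 55.9 to 87.1, 75.4 and 76.1 CPM in the controls, by 0.43 ± 0.07 (edgeR adjusted p = 0.000148). In LIGHT cells Akap1 rose from 44.1, 46.8 and 48.8 to 81.0, 78.7 and 79.4 CPM, by 0.77 ± 0.07 (adjusted p = 1.3e-06), after a lower start of -0.34 ± 0.07 (adjusted p = 0.00465). Akap7, a membrane-bound anchor, rose by 1.13 ± 0.21 and 0.68 ± 0.21 (adjusted p = 0.000415 and 0.0128). Akap6, known for its place on the nuclear envelope of muscle cells, fell by 1.63 ± 0.39 and 1.66 ± 0.39 (adjusted p = 0.00287 and 0.00268), from 2.74 to 3.98 CPM to 0.581 to 1.77 CPM. Akap8, Akap9, Akap10, Akap11, Akap12 and Akap8l each moved by at most 0.34 in either line, and of these only Akap8 in the controls was called on 12 libraries (-0.34 ± 0.08, adjusted p = 0.00341). Akap17b, at 3.38 to 6.06 CPM, changed by 0.41 ± 0.17 in the controls (adjusted p = 0.0536, and 0.0249 on 10 libraries). Akap3, a sperm tail protein, had 7 to 18 counts before and 0 to 4 after differentiation. Akap5 and Akap14 were not tested and had at most 7 counts.

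Akap13, an anchor that also activates the small GTPase RhoA, was higher in LIGHT cells before differentiation, at 46.9, 48.1 and 50.6 CPM against 32.6, 33.5 and 31.1 CPM in the controls (0.58 ± 0.11, edgeR adjusted p = 0.00304). After differentiation it had 67.9, 50 and 52.5 CPM in the controls, a rise of 0.81 ± 0.11 (adjusted p = 4.65e-05), and 51.2, 64.3 and 61.2 CPM in LIGHT cells. The rise in LIGHT cells was 0.28 ± 0.11 (adjusted p = 0.0484). It ended without any 1 of the 6 undifferentiated libraries or of LIGHT 2 and 3 after differentiation (0.21 to 0.31, adjusted p = 0.0607 to 0.166), and with scaling by library totals (0.21, adjusted p = 0.19). After differentiation library 1 of each line again lay closer to the other line, and on 10 libraries Akap13 was higher in differentiated LIGHT cells by 0.28 ± 0.07 (adjusted p = 0.00583), a call that ended without control 2 or LIGHT 2 (0.24 to 0.25, adjusted p = 0.0635 to 0.0743).

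Akap2 had the largest line difference of the anchoring proteins, but its counts cannot be separated from those of Pakap, a listed gene that shares its locus. Akap2 measured 68.9, 52.0 and 61.5 CPM in undifferentiated controls, 24.3, 19.7 and 22.1 CPM in undifferentiated LIGHT cells, 45.0, 52.1 and 47.9 CPM in differentiated controls and 43.0, 42.1 and 51.2 CPM in differentiated LIGHT cells. Taken alone it was lower in undifferentiated LIGHT cells by -1.46 ± 0.12 (edgeR adjusted p = 9.34e-06), rose there by 1.04 ± 0.12 (adjusted p = 8.86e-06), fell in the controls by 0.33 ± 0.11 (adjusted p = 0.023), and its responses differed by 1.38 ± 0.16 (adjusted p = 0.000514). Pakap moved the other way before differentiation, at 27.6, 39.7 and 37.1 CPM in the controls and 59.5, 54.8 and 71.4 CPM in LIGHT cells. The summed level of both was 96.6, 91.7 and 98.6 CPM and 83.8, 74.5 and 93.5 CPM in these groups, which overlap.

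With the counts of Akap2 and Pakap summed into 1 gene, the line difference before differentiation was -0.19 ± 0.08 (edgeR adjusted p = 0.117), the change in LIGHT cells -0.19 ± 0.08 (adjusted p = 0.0656) and the difference in responses 0.14 ± 0.12 (adjusted p = 0.498). The fall in the controls, -0.34 ± 0.08 (adjusted p = 0.00361), was still called. On 10 libraries the sum was lower in undifferentiated LIGHT cells by -0.18 ± 0.07 (adjusted p = 0.0379) and fell in LIGHT cells by 0.22 ± 0.08 (adjusted p = 0.0151). For Akap2 alone, the fall in the controls ended without control 1 or 3 before or control 1 or 3 after differentiation (-0.32 to -0.23, adjusted p = 0.0578 to 0.116).

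Of CREB and its coactivators Crem and Crtc2 rose and Creb1 fell with differentiation in both lines. Crem, which encodes both activators of cAMP-responsive genes and, from an inner promoter, the repressor ICER, rose from 4.68, 3.15 and 3.15 to 6.84, 6.6 and 5.89 CPM in the controls, by 0.82 ± 0.19 (edgeR adjusted p = 0.0022). In LIGHT cells Crem rose from 3.66, 3.46 and 2.79 to 6.17, 6.86 and 6.28 CPM, by 0.96 ± 0.19 (adjusted p = 0.000802). The stages did not overlap, and gene counts cannot separate these forms. Creb1, encoding CREB itself, had 40.9, 38.4 and 37.5 CPM in undifferentiated controls, 39.1, 46.5 and 44.5 CPM in undifferentiated LIGHT cells, 34.2, 32.3 and 34.9 CPM in differentiated controls and 34.2, 35.4 and 35.0 CPM in differentiated LIGHT cells. It fell by 0.32 ± 0.07 in LIGHT cells (adjusted p = 0.0027) and 0.20 ± 0.07 in the controls (adjusted p = 0.0294). The fall in the controls ended without any 1 of control 1 or 2 before and control 1, 2 or 3 after differentiation (-0.21 to -0.15, adjusted p = 0.0548 to 0.135), and without the low-count filter (adjusted p = 0.0783).

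Crtc2, which held 49.7% to 64.0% of the summed FPKM of the 3 CRTC coactivators, rose from 40.1, 39.8 and 37.6 to 43.3, 54.2 and 52.7 CPM in the controls and from 38.3, 35.9 and 39.5 to 51.7, 49.7 and 50.6 CPM in LIGHT cells (0.35 ± 0.08 and 0.42 ± 0.08, edgeR adjusted p = 0.00236 and 0.000801). Crtc3 was higher in undifferentiated LIGHT cells, at 27.9, 27.4 and 29.6 CPM against 22.7, 21.6 and 21.8 CPM (0.36 ± 0.09, adjusted p = 0.011), and fell there to 18.6, 21.4 and 21.3 CPM, by 0.47 ± 0.09 (adjusted p = 0.000618). In the controls it measured 22.5, 18.6 and 21.3 CPM after differentiation, a change of -0.08 ± 0.09 (adjusted p = 0.437).

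Crtc1 was higher in LIGHT cells before differentiation, and after it the groups as labelled overlapped. It had 30.2, 29.3 and 30.7 CPM in undifferentiated controls and 46.9, 48.9 and 52.0 CPM in undifferentiated LIGHT cells. After differentiation it had 49.7, 27.7 and 31.5 CPM in the controls and 28.6, 47.9 and 44.5 CPM in LIGHT cells. The 12 values fall at 27.7 to 31.5 CPM and at 44.5 to 52.0 CPM, with none between, and after differentiation library 1 of each line lies with libraries 2 and 3 of the other. Before differentiation the difference was 0.71 ± 0.20 (edgeR adjusted p = 0.0225). It ended without any 1 of the 3 undifferentiated controls or of LIGHT 2 or 3 before differentiation (0.67 to 0.73, adjusted p = 0.0594 to 0.0716). After differentiation the lines differed by 0.16 ± 0.20 on 12 libraries (adjusted p = 0.92). Without the 2 libraries against their labels the difference was 0.72 ± 0.07 before (adjusted p = 8.53e-08) and 0.63 ± 0.08 after differentiation (adjusted p = 1.28e-05), and the change with differentiation was 0.00 ± 0.08 in the controls and -0.09 ± 0.07 in LIGHT cells.

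**Figure D5:**
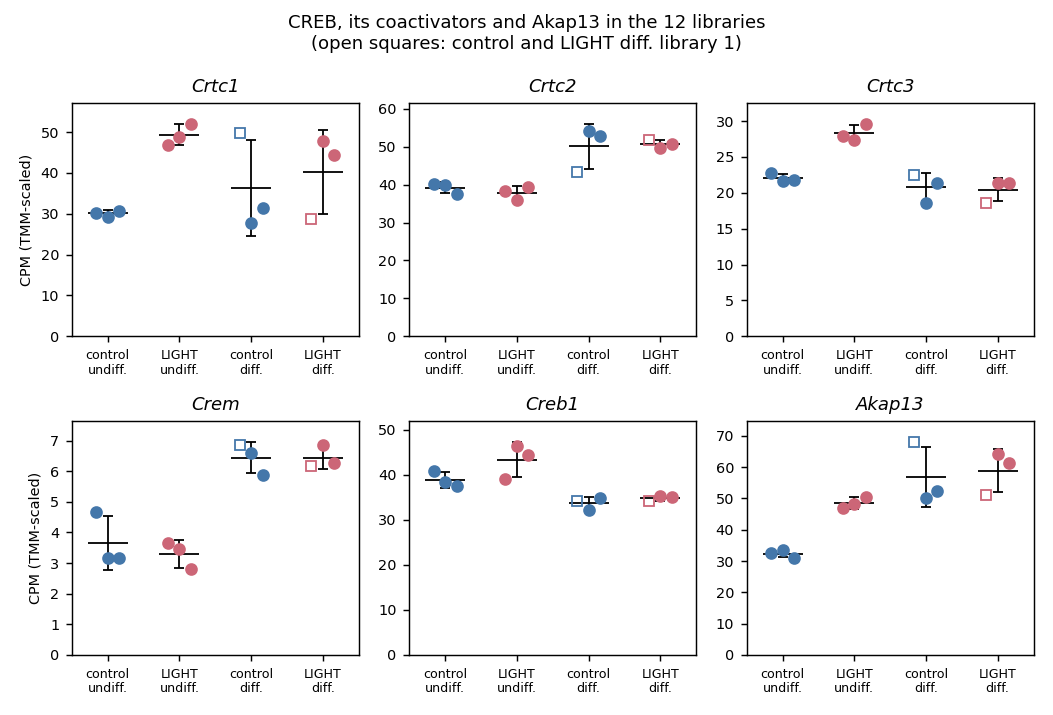
CPM (y axis, from 0) of CREB, Crem, the CRTC coactivators and Akap13 in the 4 groups (x axis); points are libraries, bars the mean and SD of 3, and open squares the libraries labelled control 1 and LIGHT 1 after differentiation. Crem and Crtc2 are higher after differentiation, and the open squares of Crtc1, at 49.7 and 28.6 CPM, each lie with the filled points of the other line.

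Beyond the members, 70 further genes of the pathway were listed by role, of which 67 were present and 51 tested. With differentiation 29 were called higher and 13 lower in the controls, and 24 higher and 16 lower in LIGHT cells, beside 63.9% and 58.6% of all genes (32.2% and 29.5% higher). Many of the other receptors on this list were near 0 before differentiation and passed the filter through the differentiated libraries. Of the 12 tested PKA substrates and cAMP-responsive transcripts, 11 were called higher in the controls and 7 in LIGHT cells, and 1 lower in each. Pck1 among them was at 0 to 0.117 CPM before differentiation. It passed the filter through the differentiated libraries alone, so it had to differ between the stages. Plin1, the droplet coat that PKA phosphorylates, went from 1.16 ± 0.161 to 544 ± 53.8 CPM in the controls and from 0.563 ± 0.365 to 509 ± 70.8 CPM in LIGHT cells (SD, n = 3). Lipe, hormone-sensitive lipase, rose by 6.23 ± 0.21 and 5.17 ± 0.20 (edgeR adjusted p = 1.61e-10 and 5.76e-10), and Pnpla2, the first lipase of the pathway, by 6.05 ± 0.10 and 5.70 ± 0.10 (adjusted p = 8.52e-13 and 7.65e-13). Before differentiation 13 of the 51 were called higher and 3 lower in LIGHT cells, beside 12.3% and 14.2% of all genes.

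Those with the smallest adjusted p, Rgs2, Fos, Sik1 and Nr4a1, are short-lived transcripts known to respond to cAMP among other signals. Of the 12 tested PKA substrates and cAMP-responsive transcripts, 5 were called higher in undifferentiated LIGHT cells and 0 lower. The shares of all genes were 12.3% higher and 14.2% lower. On 10 libraries 6 of the 12 were called higher and 2 lower, beside 22.3% and 22.1% of all genes. Ppargc1a and Atf3 of that group averaged 1.88 and 8.48 CPM in undifferentiated controls and 1.14 and 8.21 CPM in undifferentiated LIGHT cells. A part of cAMP in these differences was not tested. Rgs2, a brake on G protein signalling, had 19.3, 19.6 and 18.9 CPM in undifferentiated controls and 60.1, 63.0 and 53.8 CPM in undifferentiated LIGHT cells, a difference of 1.61 ± 0.08 (edgeR adjusted p = 2.2e-07). Fos differed by 3.55 ± 0.21, Nr4a1 by 1.07 ± 0.10 and Sik1, a kinase that holds CRTC proteins outside the nucleus, by 1.00 ± 0.08 (adjusted p = 1.19e-06, 1.93e-05 and 1.15e-05). All 4 rose with differentiation in the controls, and Rgs2 and Sik1 by less in LIGHT cells (0.26 ± 0.07 and 0.29 ± 0.08), and after differentiation Rgs2 measured 71.7, 81.6 and 75.1 CPM in the controls and 72.7, 66.6 and 72.3 CPM in LIGHT cells. The difference in responses was -1.72 ± 0.11 for Rgs2, -3.40 ± 0.27 for Fos, -0.88 ± 0.12 for Sik1 and -0.99 ± 0.14 for Nr4a1 (adjusted p = 9.3e-06, 4.68e-05, 0.00105 and 0.0012). After differentiation 0 of the 51 were called between the lines on 12 libraries by edgeR, as for all genes. On 10 libraries 7 of 52 were called higher and 14 lower in differentiated LIGHT cells, beside 14.6% and 16.4% of all genes. The smallest adjusted p among those higher were of Npy1r, a receptor that couples to inhibitory G proteins (3.18 ± 0.18, edgeR adjusted p = 1.8e-10), Pkia, a PKA inhibitor (1.56 ± 0.14, adjusted p = 6.46e-08), and Ptger4, a prostaglandin receptor (2.27 ± 0.29, adjusted p = 7.73e-06). The smallest among those lower was of Atf3, a stress-induced transcription factor (-1.05 ± 0.15, adjusted p = 3.3e-05).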

How the data were processed

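Expression was measured by mRNA sequencing in 12 libraries of 3T3-L1 cells, 3 in each of 4 groups taken from the sample titles. The authors deposited 1 gene table per library with expected counts, FPKM and gene length, per the file headers; FPKM divides by that deposited gene length, another column, and by library size. Per the submitters' processing notes the genome build is mm8; the aligner, the counting program and the use of strand are each not given in the sources. A gene absent from a table was read as 0.

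Expected counts were rounded to whole numbers. edgeR 4.0.16 in R 4.3.3 fitted all 12 libraries with 1 coefficient per group, TMM scaling, filterByExpr (minimum count 10) and no block, and p-values were adjusted over all 12993 genes tested. SEs are |log2 fold change| over sqrt(F). Count ratios with few counts have exact 95% intervals. Alternatives were DESeq2 1.42.0, limma-voom (limma 3.58.1), other scalings and filters, a replicate block, each library left out, and both libraries whose Tnfsf14 goes against the label left out. On simulated counts for differentiation in control cells, 92.5% of 200 genes changed 2-fold were recovered among 12993 genes, with 11 false calls. The simulation changed only those 200 genes, gave every gene the same dispersion (spread beyond counting error) and held no library against its label. Its rates therefore check the fitting steps and do not describe these data.

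Members, gene lists and the libraries to doubt were chosen with earlier results of these data known. Values in every library are given for members averaging 5 CPM or more in some group that are among the 3 largest rises or falls called in a comparison, and, whatever their values, for Adrb1, Adrb3, Gnas, Pde3b, Pde4d, Prkaca, Prkacb, Prkar1a, Prkar2b, Creb1, Crem, Crtc2 and Crtc3; Adra1d, Adcy5, Adcy6, Adcy9, Akap1, Pde1a and Pakap were added after their values were seen. Promoters are from the RefSeq table of GRCm38.p6, another build than that of the counts, and no coordinates were converted. Protein sequences were not used here, and 1 receptor gene is not reported here by name.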

Additional observations from a re-analysis of the deposited data

Results flagged for a closer look

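Each result here was flagged because the lines differed in their response to differentiation, by edgeR's test of the difference itself (change in LIGHT cells minus change in controls, log2 scale, adjusted p under 0.05 over all genes). On 12 libraries the difference was 1.609 for Adra2a, 1.537 for Pde2a, 1.375 for Akap2 and 0.561 for Prkar2a, all higher in LIGHT cells, and -0.888 for Pde3b and -1.357 for Adcy7. With the counts of Akap2 and Pakap summed, the value for Akap2 was 0.144 and was not called.

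Without the libraries labelled control 1 and LIGHT 1 after differentiation, the same 6 were flagged again, at 1.886 for Adra2a, 1.968 for Pde2a, 1.346 for Akap2 (0.033 with Pakap summed), 0.503 for Prkar2a, -0.842 for Pde3b and -1.082 for Adcy7. A further 2 were higher in LIGHT cells, Adra1d at 0.535 and Akap1 at 0.38. The others were lower: Adcy3 at -0.964, Adcy9 at -0.691, Akap7 at -0.671, Pde1a at -0.593, Pde4d at -0.522, Akap13 at -0.31, Prkaca at -0.261 and Gnas at -0.254. Of these, leaving out 1 further library after differentiation ended the call for Gnas (LIGHT 2, LIGHT 3 or control 3, adjusted p = 0.0543 to 0.0724), Prkaca and Akap13 (LIGHT 3 or control 3, adjusted p = 0.0936 to 0.101 and 0.0779 to 0.087) and Pde4d (LIGHT 3 or control 2, adjusted p = 0.0533 to 0.0813), by edgeR. Scaling by library totals ended it for Gnas, Prkaca and Akap13 (adjusted p = 0.0968, 0.116 and 0.119) and for Adcy7 (adjusted p = 0.0596). The call of Adcy7 also ended without any 1 of 6 libraries, LIGHT 3 and control 3 after differentiation among them. Its edgeR adjusted p was then 0.0553 to 0.191, and DESeq2 did not call it either (adjusted p = 0.0536). Adra1d, Akap1, Adcy9, Akap7 and Pde1a were not followed through these alternatives, so whether their calls hold is not known.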

How the results depend on the processing

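On 12 libraries, counts of members called with differentiation (31 in controls, 29 in LIGHT cells) and between undifferentiated lines (16) stayed within 1.5 times under every alternative; leaving out 1 library gave 25 to 31, 25 to 31 and 13 to 18. Members called lower in the controls numbered 10 to 16 with 1 library left out. The difference in responses, 6 members, gave 11 with DESeq2 (6 of them lower), 16 without both doubted libraries (10 lower) and 5 to 10 with 1 library left out (1 to 5 lower). Between differentiated lines the count went from 0 to 9 (4 higher, 5 lower) without both doubted libraries, and to 4 to 9 with a further library left out. With the replicate block the 5 counts were 29, 28, 15, 0 and 5, the last with 1 lower; the labels give replicate numbers but no shared source, the deviations of the 18 same-numbered pairs correlated at r from -0.618 to 0.097, and 6 of 12 libraries correlated best with their own number.

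Among named members, the sign turned with a call in either fit for Pde4d and Akap2. The difference in responses of Pde4d, not called on 12 libraries, was called at -0.522 without both doubted libraries. The called rise of Akap2 in LIGHT cells became -0.193 with Pakap summed, and -0.223 without both doubted libraries as well. A further 50 sign changes on 12 libraries and 48 on 10 were of values called in neither fit. Of the other alternatives for named members, 57 ended a call and 40 made one on 12 libraries, against 50 and 9 on 10; the cause was not tested. Summing Akap2 with Pakap, and the alternatives within the 10 libraries, were chosen after seeing the data. Scaling by library totals moved the median of all genes from 0.0 to -0.113 in the controls, where 42.1% of calls were then higher in place of 50.4%. On 10 libraries that median went from 0.01 to -0.147, with 40.1% in place of 50.6%. On 10 libraries that scaling also gave 66.0% in place of 47.1% between differentiated lines and 65.4% in place of 48.2% for the difference in responses. Depth limits Adrb1, Adrb3, Adcy5, Akap3, Pde5a and Pde8b, which have few counts in at least 1 stage.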
